A study of Homo sapiens with 6 samples.

Results

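DNA topoisomerases are the enzymes that cut and rejoin DNA to release the torsion and tangles made by transcription, replication and chromosome segregation, and the tyrosyl-DNA phosphodiesterases TDP1 and TDP2 remove topoisomerase proteins that stay trapped on a cut. The 8 genes described here, TOP1, TOP1MT, TOP2A, TOP2B, TOP3A, TOP3B, TDP1 and TDP2, were chosen by symbol as the human nuclear and mitochondrial members of the main topoisomerase classes with the 2 enzymes that clear their adducts. They were 8 of the 63241 genes counted, and each was found once by its Ensembl identifier. All 8 passed the filter on low counts and were among the 15295 genes tested.

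The established line MDA-MB-231, from a human triple-negative breast cancer, was labelled wild type in both groups and was treated for 24 h with 5 μM NCD (nitidine chloride, a plant alkaloid) or with 0.1% DMSO, the vehicle. RNA from 3 samples per group was sequenced, and the deposited values were expected counts per gene. The labels name no animals or donors, and the series has a single cell line, dose and time, so no other condition or earlier time bears on these genes. Library totals ranged from 18223594 to 19410833 counts with DMSO and from 18232169 to 21629653 counts with NCD.

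As background, type I enzymes cut a single strand and type II enzymes cut both. TOP1 relaxes supercoils ahead of and behind RNA polymerase in the nucleus, and TOP1MT does so on mitochondrial DNA. TOP2A serves replication and chromosome segregation in dividing cells, while TOP2B is also made in cells that do not divide and works at regulated genes and chromatin loops. TOP3A resolves recombination intermediates with the BLM helicase and also acts in mitochondria, and TOP3B acts on RNA as well as DNA with the adaptor TDRD3. TDP1 mainly cleaves the bond between TOP1 and a 3′ end of DNA, and TDP2 that between TOP2 and a 5′ end. Camptothecin, which poisons TOP1, and etoposide, which poisons TOP2, act by trapping these intermediates.

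Differential expression was called at an adjusted p below 0.05 (edgeR's quasi-likelihood test, Benjamini-Hochberg adjustment over all tested genes) with an absolute log2 fold change above 1. A gene is said to be higher or lower with NCD where its adjusted p was below 0.05, whatever the fold. With NCD, 2 of the 8 genes were differentially expressed, TDP1 and TOP2B, and both were lower. Of all tested genes 31.0% were differentially expressed, 13.5% higher and 17.5% lower. At any fold, TOP1, TOP2B, TDP1 and TDP2 were lower, TOP3A and TOP3B were higher, and TOP2A and TOP1MT did not pass the test. This made 6 of 8, against 69.3% of all tested genes (35.3% higher and 34.1% lower). The groups did not overlap for the same 6 genes, and 72.6% of all tested genes had groups that did not overlap. These shares lie near those of all genes, so nothing particular to the family is read from the counts. The median log2 fold change of the 8 genes was -0.47, beside 0.04 over all tested genes. In bulk RNA, fewer cells of a type and less RNA per cell cannot be told apart. Levels here are shares of a library's counts, so higher and lower are relative to the other genes, and the amount of RNA per cell is not shown.

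**Figure D1:**
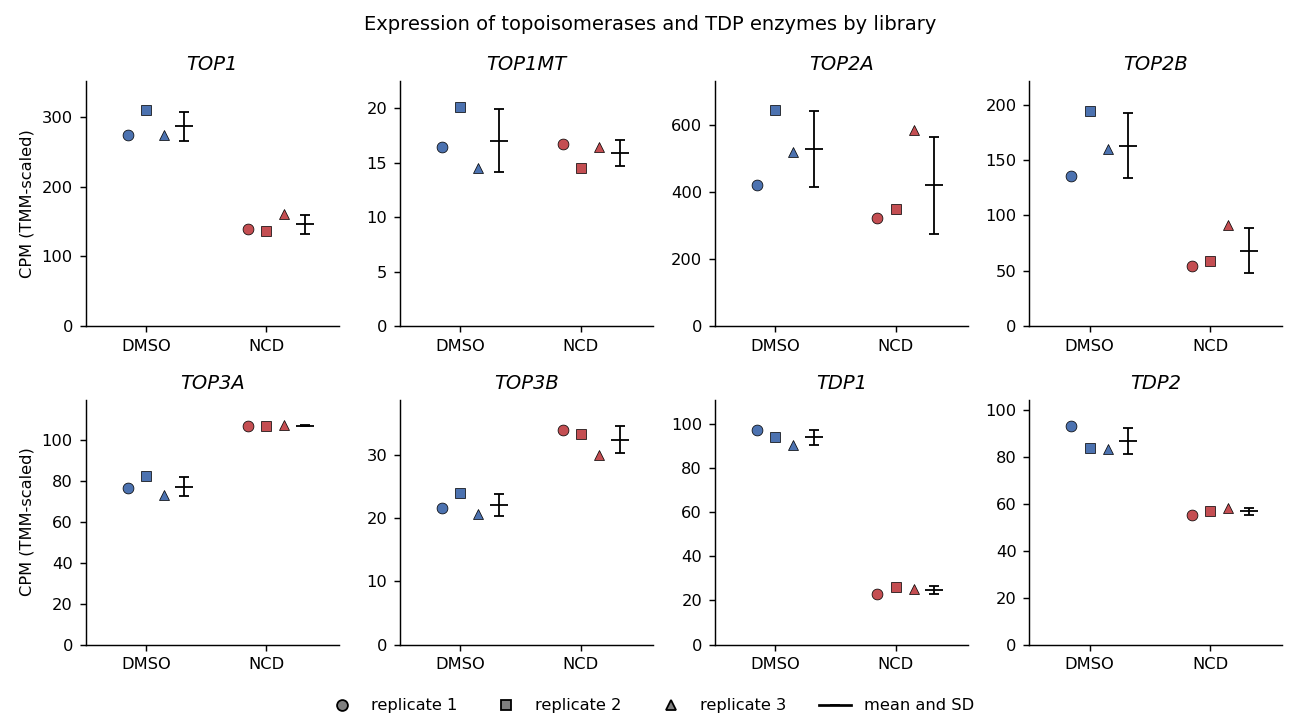
Expression of each of the 8 genes in CPM (counts scaled to library size by TMM, on the vertical axis from 0) in the 3 DMSO and 3 NCD libraries, with 1 point per library and the mean ± SD of each group beside it. TDP1 is near 94.0 CPM in every DMSO library and near 24.8 CPM in every NCD library, while the points of TOP2A and TOP1MT overlap between the groups.

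In annotation release 29 of GENCODE on GRCh38, TOP1 (ENSG00000198900) covers 41028818 to 41124487 of chromosome 20 on the plus strand. TOP2A (ENSG00000131747) covers 40388516 to 40417950 of chromosome 17 on the minus strand. TOP2B (ENSG00000077097) covers 25597905 to 25664907 of chromosome 3 on the minus strand. TOP3A (ENSG00000177302) is at 18271428 to 18315007 of chromosome 17 and TOP3B (ENSG00000100038) at 21957025 to 21982816 of chromosome 22, both on the minus strand. TDP1 (ENSG00000042088) spans 89954939 to 90044768 of chromosome 14 on the plus strand, and TDP2 (ENSG00000111802) spans 24649977 to 24667033 of chromosome 6 on the minus strand. The expected counts are totals over each gene's exons and do not separate transcripts.

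The upstream regions of the TOP2 paralogs are shown as a description only, and any part of them in the counts of these genes was not tested. Each run is the 196 bases furthest upstream in RefSeq's promoter table (GRCh38.p14), written 5′ to 3′ in the direction of the gene. It lies upstream of every transcript of its own gene in GENCODE release 29, and transcripts of other genes were not checked. Capitals mark the CCAAT box, searched as CCAAT and as its reverse complement ATTGG. TOP2A's region is chr17:40417951-40418146 and TOP2B's is chr3:25664962-25665157, both on the minus strand.
TOP2A: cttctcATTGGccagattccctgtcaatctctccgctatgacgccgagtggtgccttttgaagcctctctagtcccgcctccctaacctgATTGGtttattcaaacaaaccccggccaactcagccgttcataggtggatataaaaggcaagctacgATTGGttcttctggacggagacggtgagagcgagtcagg
TOP2B: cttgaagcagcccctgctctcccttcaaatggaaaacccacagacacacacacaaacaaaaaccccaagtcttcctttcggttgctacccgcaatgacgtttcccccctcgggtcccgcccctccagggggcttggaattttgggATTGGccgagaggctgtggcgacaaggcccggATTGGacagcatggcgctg
TOP2A's region held 3 CCAAT boxes and TOP2B's held 2, all of them read as ATTGG in the direction of the gene. Of 35116 RefSeq windows of the same length, 26.7% held at least 1 CCAAT box and 6.71% held 2 or more. A GC box (GGGCGG or CCGCCC on the strand shown) was found 1 time in TOP2B's region and 0 times in TOP2A's, and 34.2% of all windows held one. These matches describe letters and were not tested for binding.

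Among the type I enzymes TOP1, the nuclear swivelase and the target of camptothecins, was lower with NCD. Its counts were 4558, 5488.97 and 4993 under DMSO against 3186, 2647 and 3456.16 under NCD. In CPM these were 274.7, 310.6 and 273.7 with DMSO and 139.2, 137.0 and 161.1 with NCD. Every NCD library lay well below every DMSO library. The DMSO mean of 286.3 ± 21.0 and the NCD mean of 145.8 ± 13.4 CPM (SD, n = 3 each) differed by -0.97 on the log2 scale (standard error 0.08). The adjusted p = 7.03e-06 from edgeR passed the test, and the fold was just short of its threshold. It passed that threshold in 3 of 16 other settings, and ranged from -1.07 to -0.92 when 1 library was left out. TOP1 overlaps PLCG1-AS1 on the opposite strand, which had at most 17 counts in a library, and its processed pseudogene TOP1P1 had at most 5.84.

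TOP1MT (ENSG00000184428), the mitochondrial enzyme encoded on chromosome 8 of the nuclear genome, did not pass the test. Its counts were 273, 356 and 264 with DMSO and 383, 280 and 352 with NCD. In CPM it was at 16.5, 20.1 and 14.5 with DMSO and at 16.7, 14.5 and 16.4 with NCD, so the groups overlapped. The change was -0.10 on the log2 scale (SE 0.13, edgeR adjusted p = 0.521), and the sign turned to 0.10 when libraries were scaled by their totals and to 0.03 without DMSO replicate 2. Scaling by totals shifted the median over all tested genes by 0.20 (log2), and gave 2793 differentially expressed genes higher and 2181 lower in place of 2067 and 2669. The ratio of TOP1 to TOP1MT within a library, which no scaling can move, was 16.9 in the DMSO libraries and 9.16 in the NCD libraries (geometric means). On the log2 scale it was 4.06, 3.94 and 4.24 with DMSO and 3.05, 3.24 and 3.29 with NCD, and the groups did not overlap. The difference was -0.89 (standard error 0.11), with p = 0.1 in an exact two-sided permutation test over libraries, the smallest p that 3 against 3 allow.

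Of the type II enzymes, TOP2B was differentially expressed and lower, and TOP2A did not pass the test. TOP2B, the isoform made in dividing and resting cells alike, was counted 2245, 3430 and 2912 times under DMSO and 1249, 1131.01 and 1965 times under NCD. Its level was 135.3, 194.1 and 159.6 CPM in the DMSO libraries and 54.6, 58.5 and 91.6 CPM in the NCD libraries. The highest NCD library stayed below the lowest DMSO library. The means were 163.0 ± 29.5 and 68.2 ± 20.3 CPM (SD, n = 3 each), which is -1.26 on the log2 scale (SE 0.20, edgeR adjusted p = 0.000427). TOP2B was differentially expressed in 16 of 16 other settings. RARB overlaps TOP2B on the opposite strand and had at most 6 counts in a library.

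TOP2A, the isoform of dividing cells, was counted 6962, 11411 and 9464 times under DMSO and 7402, 6726 and 12570 times under NCD. Its level was 419.6, 645.6 and 518.8 CPM with DMSO and 323.4, 348.0 and 586.1 CPM with NCD. Replicate 3 of NCD lay above DMSO replicates 1 and 3, while the other two NCD libraries lay below every DMSO library. The means of 528.0 ± 113 and 419.2 ± 145 CPM (SD, n = 3 each) gave a log2 fold change of -0.33 with an SE of 0.23 (edgeR adjusted p = 0.222). Without NCD replicate 3 the log2 fold change was -0.67 (adjusted p = 0.00296), past the test. Without DMSO replicate 2 it was -0.17 (adjusted p = 0.547), and with libraries scaled by their totals it was -0.13 (adjusted p = 0.642).

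The spread of the TOP2 paralogs between libraries of a group was large among expressed genes and was shared by both. The SD of log2 CPM within groups was 0.40 for TOP2A and 0.34 for TOP2B, at percentiles 98.1 and 96.9 of the 10494 protein-coding genes that averaged 5 CPM or more, whose median was 0.11. The other 6 genes had values from 0.06 for TOP3A to 0.18 for TOP1MT. DMSO replicate 2 and NCD replicate 3 were the libraries above their group means for both paralogs. TOP2A deviated by 0.31 and 0.54 (log2) in these libraries, and TOP2B by 0.27 and 0.46. TOP1 deviated the same way by 0.12 and 0.15.

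The same libraries held more of the long transcripts of the whole table. A score was taken as the mean log2 deviation from the group mean over the 1050 genes with the longest principal transcripts (at least 7311 bases). It was 0.145 in DMSO replicate 2 and 0.181 in NCD replicate 3, and from -0.117 to -0.0289 in the other libraries. The principal transcripts of TOP2A and TOP2B have 5758 and 5389 bases, below that limit, so neither gene enters the score. With the score as a covariate, an alternative added after seeing the data, the log2 fold change of TOP2A was -0.36 (SE 0.05, edgeR adjusted p = 8.25e-07). The score was made from within-group deviations of the same libraries, and TOP2A deviated upward in those that scored high. A smaller SE than the 0.23 of the main setting was thus built in, and this p is no independent support. Leaving out both libraries, also chosen after seeing the data, gave -0.49 (adjusted p = 3.96e-05) for TOP2A and -1.39 for TOP2B, and the count of differentially expressed members stayed at 2. This left 2 libraries per group, without those in which TOP2A deviated upward, so a smaller spread was again built in. The deviations also went with the GC content of the transcripts. Across the 10494 genes, which are not independent replicates, Spearman's rho of the deviation with transcript length was 0.605 in DMSO replicate 2 and 0.559 in NCD replicate 3, and that with GC content was -0.190 and -0.559. In NCD replicates 1 and 2 the rho with GC content was 0.448 and 0.456. The transcripts of TOP2A and TOP2B have a GC content of 39.1% and 39.7%. Length and GC content were not told apart, and what produced the difference between libraries was not tested.

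**Figure D2:**
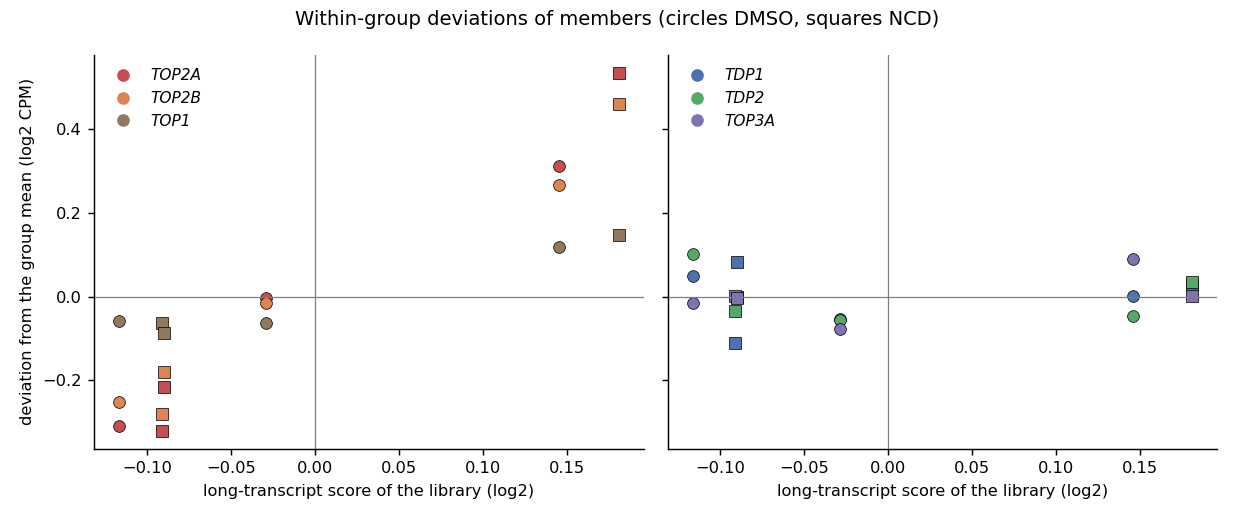
Deviation of each gene from its group mean (log2 CPM, vertical axis) against the long-transcript score of the library (log2, horizontal axis), with circles for DMSO libraries and squares for NCD libraries. TOP2A and TOP2B reach 0.54 and 0.46 in NCD replicate 3, the library with the highest score, while the deviations of TOP3A and TDP2 stay close to 0.

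Because both paralogs moved together between libraries, their ratio within a library was far tighter than either level. The log2 ratio of TOP2A to TOP2B counts was 1.63, 1.73 and 1.70 with DMSO and 2.57, 2.57 and 2.68 with NCD. Every NCD library held a higher ratio than every DMSO library. The geometric mean ratio was 3.22 with DMSO and 6.08 with NCD, a rise of 0.92 on the log2 scale (standard error 0.05, p = 0.1 in the exact permutation test, adjusted p = 0.133 over 4 pairs). The SD of the log2 ratio was 0.05 with DMSO and 0.06 with NCD, beside the SD of 0.40 for TOP2A itself.

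The type IA enzymes were the members that were higher with NCD. TOP3A, the partner of BLM in dissolving double Holliday junctions, was counted 1269, 1454 and 1336 times under DMSO and 2452.97, 2065 and 2299.65 times under NCD. This was 76.5, 82.3 and 73.2 CPM with DMSO and 107.2, 106.8 and 107.2 CPM with NCD. The groups were well apart, and the NCD libraries hardly differed from each other. The mean rose from 77.3 ± 4.58 to 107.1 ± 0.215 CPM (SD, n = 3 each), or by 0.47 on the log2 scale (SE 0.06, edgeR adjusted p = 0.000132).

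TOP3B, which works with TDRD3 on messenger RNA and DNA, was counted 358.9, 423.57 and 375.98 times under DMSO and 777.26, 641.68 and 641.97 times under NCD. In CPM it was at 21.6, 24.0 and 20.6 with DMSO and at 34.0, 33.2 and 29.9 with NCD, and the groups did not overlap. The means of 22.1 ± 1.73 and 32.4 ± 2.14 CPM (SD, n = 3 each) differed by 0.55 on the log2 scale (SE 0.09, edgeR adjusted p = 0.000507). Its counts are uncertain, since AC245452.1 overlaps it on the opposite strand and the use of strand in counting is not stated. That gene had 69.16 to 94.44 counts per library with DMSO, from 19.3% to 22.3% of those of TOP3B. With NCD it had 67.33 to 90.04 counts, from 10.5% to 14.0%. TOP3A and TOP3B kept nearly the same ratio in both groups. It was 3.50 under DMSO and 3.31 under NCD, a log2 difference of -0.08 (standard error 0.06, p = 0.4 in the exact permutation test), and the groups overlapped.

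The largest change of the 8 genes was that of TDP1, the enzyme that frees DNA 3′ ends from TOP1. Its counts were 1613, 1663 and 1652 under DMSO against 524, 508 and 542 under NCD. Its level was 97.2, 94.1 and 90.6 CPM with DMSO and 22.9, 26.3 and 25.3 CPM with NCD. The replicates of each group lay close together and the groups far apart. The mean fell from 94.0 ± 3.33 to 24.8 ± 1.74 CPM (SD, n = 3 each), which is 3.79-fold lower, or -1.92 on the log2 scale (SE 0.08, edgeR adjusted p = 7.17e-08). It ranged from -1.98 to -1.89 without 1 library and was -1.72 with libraries scaled by their totals. Of all tested genes, 7.20% had a lower log2 fold change than TDP1.

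TDP2, which frees 5′ ends from TOP2 and was also known as a binding partner of TRAF proteins, was lower too. Its counts were 1543, 1482 and 1520 under DMSO against 1267, 1096 and 1248 under NCD. This was 93.0, 83.9 and 83.3 CPM with DMSO and 55.4, 56.7 and 58.2 CPM with NCD. The groups did not overlap, and their means of 86.7 ± 5.43 and 56.8 ± 1.41 CPM (SD, n = 3 each) differed by -0.61 on the log2 scale (SE 0.07, edgeR adjusted p = 3.99e-05). The TDP1 to TDP2 ratio was 1.08 with DMSO and 0.437 with NCD. On the log2 scale it was 0.06, 0.17 and 0.12 with DMSO and -1.27, -1.11 and -1.20 with NCD, a difference of -1.31 (standard error 0.06, p = 0.1 in the exact permutation test). Counts of these genes were alike with DMSO, and with NCD TDP1 had fewer counts than TDP2 in every library.

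**Figure D3:**
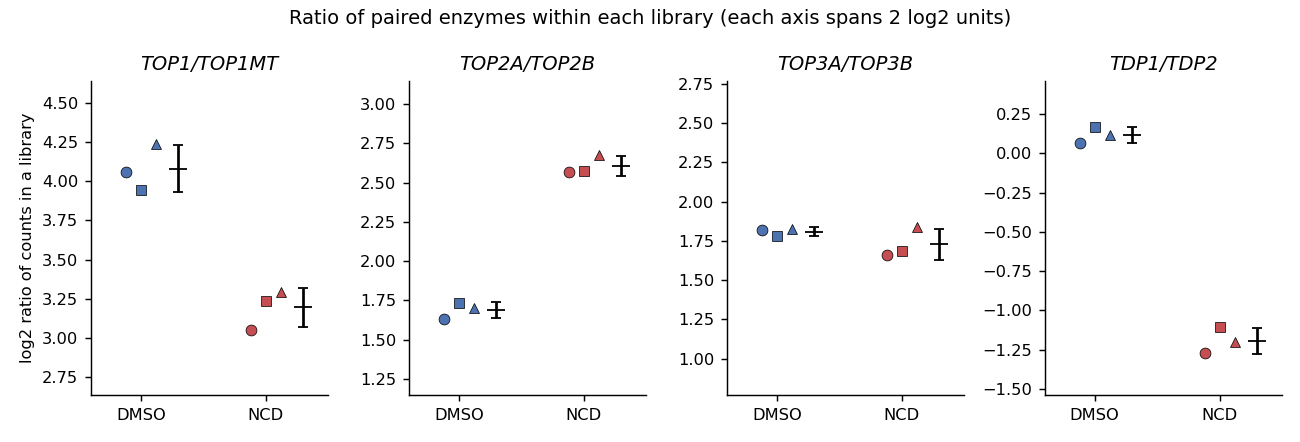
The log2 ratio of counts of paired enzymes within each library (vertical axes, each spanning 2 log2 units) for DMSO and NCD, with 1 point per library and the group mean ± SD. The ratio of TOP2A to TOP2B changed by 0.92, that of TOP1 to TOP1MT by -0.89 and that of TDP1 to TDP2 by -1.31, with no overlap of the groups, while the points of TOP3A to TOP3B overlap.

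To compare levels between genes, CPM was divided by the length of the principal transcript in kilobases. With DMSO, TOP2A had the highest level per kilobase (91.7 ± 19.7, SD, n = 3), followed by TOP1 (76.6 ± 5.62), TDP2 (41.9 ± 2.62), TOP2B (30.2 ± 5.48) and TDP1 (25.4 ± 0.899). TOP3A (18.8 ± 1.11), TOP1MT (8.69 ± 1.47) and TOP3B (7.11 ± 0.558) followed. Neighbours in this order lay within their combined spread for TOP2A and TOP1, for TOP2B and TDP1, and for TOP1MT and TOP3B. With NCD the level per kilobase was 72.8 ± 25.2 for TOP2A, 39.0 ± 3.57 for TOP1, 27.4 ± 0.683 for TDP2 and 26.0 ± 0.0522 for TOP3A (SD, n = 3). It was 12.7 ± 3.78 for TOP2B, 10.4 ± 0.689 for TOP3B, 8.11 ± 0.621 for TOP1MT and 6.70 ± 0.470 for TDP1. Here the neighbours within their combined spread were TOP2B and TOP3B. TDP1 went from rank 5 to rank 8, and TOP3A from rank 6 to rank 4. With exon lengths merged over all transcripts, TOP3B and TOP1MT changed places with DMSO, and TDP1 had rank 7 with NCD. Of the level per kilobase summed over the 6 topoisomerases, TOP1 made up 33.1% ± 2.49 with DMSO and 23.3% ± 2.13 with NCD (SD, n = 3). TOP2B made up 12.9% ± 0.617 and 7.40% ± 0.762, and TOP3A made up 8.13% ± 0.831 and 15.7% ± 2.68. These shares add to a fixed whole, so a lower share of some members raises that of others.

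**Figure D4:**
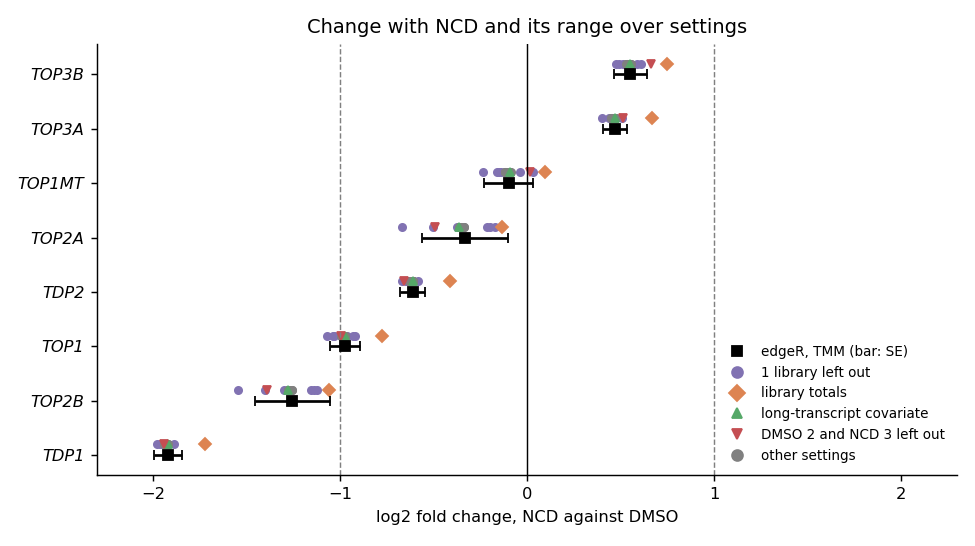
Log2 fold change with NCD (horizontal axis) of each of the 8 genes as a black square with its standard error from edgeR, with coloured marks above it for the other settings and dashed lines at the fold threshold. TDP1 at -1.92 and TOP2B at -1.26 lie past the fold threshold of 1, TOP3A and TOP3B lie at 0.47 and 0.55, and the marks of TOP1MT lie on both sides of 0.

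The fold changes of the 8 genes are given beside those of genes of like genomic span, since the change varied with span over the whole table. The 14692 tested genes with a span were put in 10 classes of equal size. The span is 95.67 kb for TOP1 and 89.8 kb for TDP1, and the 1469 tested genes in this span class (from 89.7 to 153.1 kb) had a median log2 fold change of -0.93, with quartiles of -1.40 and -0.33. TOP1 at -0.97 lay between these quartiles and TDP1 at -1.92 lay below them. Both genes are near the lower edge of this class. In the class just below, which holds TOP2B, the quartiles were -0.78 and 0.15, and TOP1 lies below these, so its placing depends on the class edge. TOP2B spans 67.0 kb, and at -1.26 it lay below the quartiles of -0.78 and 0.15 in its class. TOP1MT spans 55.6 kb, and its -0.10 lay inside the quartiles of -0.45 and 0.43. TOP3A spans 43.6 kb, in the same class, and its 0.47 was just above the upper quartile. TDP2 spans 17.1 kb and TOP2A 29.4 kb. TDP2 at -0.61 and TOP2A at -0.33 were below the lower quartiles of -0.03 and -0.29, while TOP3B at 0.55 was inside those of its class, -0.10 and 0.78. Over the 8 genes Spearman's rho between span and log2 fold change was -0.619, a description with no test, in which all points come from the same 6 libraries. The part of span in these changes was not tested.

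For TOP1, TOP2A and TOP2B the protein-coding genes with the most similar pattern over the 6 libraries were found by the root mean square difference of centred log2 CPM, among 10494 genes. Those closest to TOP1 were LMAN1 (0.022), SEC24A (0.023) and PHF6 (0.026). Those closest to TOP2A were CCAR1 (0.048), RLF (0.049) and ANKRD18A (0.052), and those closest to TOP2B were BAZ1A (0.045), ICE1 (0.046) and PTPN13 (0.051). By the same measure TOP2A and TOP2B differed by 0.46, and TOP1 and TOP2A by 0.39.

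Genes that act with these enzymes moved in both directions. Of 30 genes that repair TOP1 adducts or modify trapped TOP1, 10 were higher, 14 were lower and 6 did not pass the test, and 5 (16.7%) were differentially expressed, 1 of them higher. EME1, a subunit of the MUS81 nuclease, was at 14.8, 16.7 and 14.8 CPM with DMSO and at 44.9, 45.4 and 44.9 CPM with NCD, or 1.55 higher on the log2 scale (SE 0.08, edgeR adjusted p = 3.19e-07). PIAS1, a SUMO ligase, went from 43.7 ± 4.09 to 16.1 ± 1.48 CPM (SD, n = 3), a log2 fold change of -1.44. The list's median was -0.14 (log2), beside 0.04 over all tested genes.

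Of 7 genes that work with TOP3A or TOP3B, 4 were higher and 3 were lower, and 1 (14.3%) was differentially expressed. This was TDRD3, the adaptor that holds TOP3B, which was at 18.3, 21.3 and 19.3 CPM with DMSO and at 4.24, 4.04 and 5.32 CPM with NCD. The log2 fold change of TDRD3 was -2.11 (SE 0.13, edgeR adjusted p = 1.02e-06), while that of TOP3B was 0.55. FXR1, an RNA-binding protein, was the most expressed of the others and went from 324.0 to 209.8 CPM (log2 fold change -0.63, adjusted p = 0.00043 from edgeR). Of the subunits of the dissolution complex with TOP3A, named after their values were seen, BLM was lower (-0.62) and RMI1 (0.48) and RMI2 (0.57) were higher.

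Of 10 end joining genes, which rejoin the breaks left by trapped TOP2, 3 (30.0%) were differentially expressed, all lower, and at any fold 5 were lower and 2 higher. Scaling by library totals gave 1 higher and 3 lower. XRCC5, which encodes Ku80, fell from 561.1 ± 11.5 to 145.9 ± 6.89 CPM (SD, n = 3), a log2 fold change of -1.94 (adjusted p = 2.65e-08 from edgeR). XRCC4, the scaffold of DNA ligase IV, fell from 33.3 ± 2.20 to 2.42 ± 0.492 CPM (SD, n = 3), a log2 fold change of -3.78. XRCC6, which encodes Ku70, went from 744.0 to 507.8 CPM (-0.55, adjusted p = 0.000161 from edgeR). PRKDC, which encodes the catalytic subunit of DNA-PK and was named after its value was seen, was the other gene called (-2.06).

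Of 17 damage checkpoint genes, 5 (29.4%) were differentially expressed, 3 higher and 2 lower, and at any fold 6 were higher and 6 lower. MDC1, the adaptor that reads phosphorylated H2AX, rose from 49.7 ± 2.64 to 109.9 ± 2.80 CPM (SD, n = 3), a log2 fold change of 1.14 (adjusted p = 5.51e-07 from edgeR). GADD45A, a stress-induced growth arrest gene, rose from 48.9 ± 0.353 to 103.7 ± 8.59 CPM (SD, n = 3), a log2 fold change of 1.08. The others, named after their values were seen, were CDKN1A (1.05), ATR (-2.29) and ATM (-1.77). Scaling by library totals gave 5 higher and 2 lower in this list.

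Mitochondrial DNA maintenance, the setting of TOP1MT, held 0 differentially expressed genes of 12 by edgeR, and also 0 by DESeq2 and limma-voom, while 8 had an unadjusted p below 0.05 in edgeR. At any fold 4 were higher and 4 lower. TFAM, which packages mitochondrial DNA, rose from 197.7 ± 7.29 to 282.7 ± 5.81 CPM (SD, n = 3), a log2 fold change of 0.52. Of 20 genes of the G2 and M phases, among which TOP2A is usually counted, 2 (10.0%) were differentially expressed, both lower, and 11 were lower, 1 higher and 8 not past the test at any fold. BUB1B, a spindle checkpoint kinase, went from 109.3 ± 9.34 to 38.4 ± 4.42 CPM (SD, n = 3), a log2 fold change of -1.51. CENPE, a kinetochore motor, was at 27.4, 55.8 and 47.1 CPM with DMSO and at 3.85, 5.74 and 15.1 CPM with NCD, high in the libraries where TOP2A was high. TPX2, the most expressed of those not differentially expressed, went from 500.0 to 295.5 CPM (-0.76).

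Condensin, cohesin and CTCF share chromosome loops with the TOP2 enzymes, and 4 of their 14 genes (28.6%) were differentially expressed, all lower. STAG1, a cohesin subunit, fell from 71.5 ± 10.4 to 3.21 ± 1.18 CPM (SD, n = 3), a log2 fold change of -4.47 (adjusted p = 2.14e-07 from edgeR). NCAPG2, a condensin II subunit, fell from 189.3 to 88.9 CPM (-1.09), and RAD21, the cohesin kleisin, was at 390.2 and 442.6 CPM (0.18, adjusted p = 0.0557 from edgeR). The median log2 fold change of this list was -0.64. None of these lists was tested as a set, and their shares of differentially expressed genes are to be read against the 31.0% of all tested genes. Their counts at any fold are to be read against 69.3% of all tested genes (35.3% higher and 34.1% lower). In these lists the genes called lower spanned from 34.0 kb (NCAPG) to 462.5 kb (STAG2). Those called higher spanned from 3.28 kb (GADD45A) to 18.1 kb (MDC1). The lists were not set beside genes of like span, and the part of span in their changes was not tested.

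**Figure D5:**
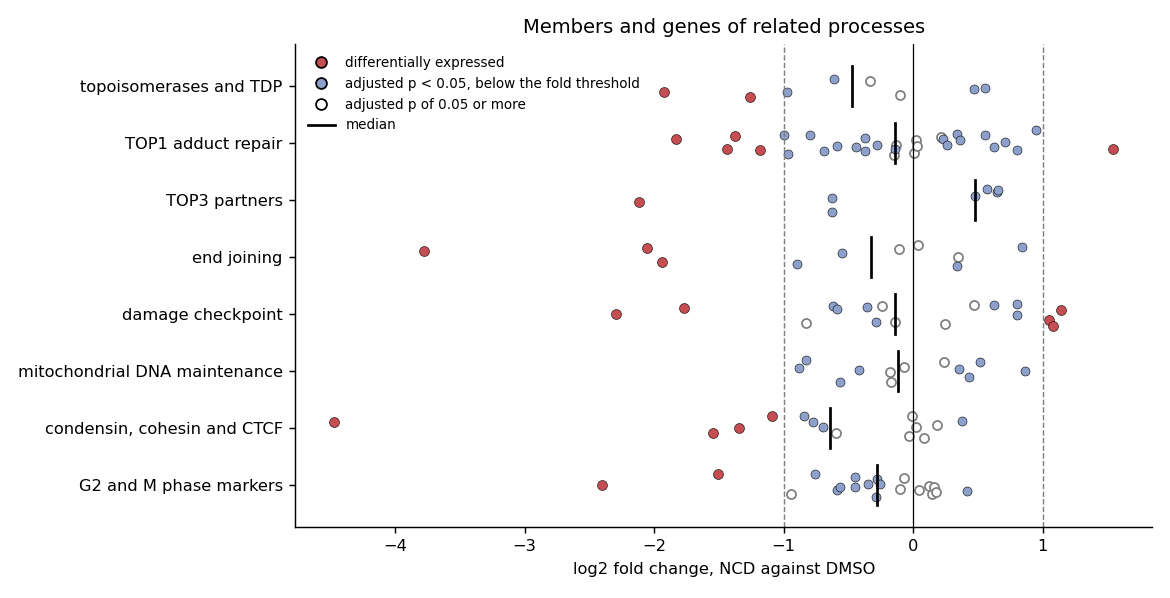
Log2 fold change with NCD (horizontal axis) of the 8 genes and of each gene in 7 lists of related processes, with 1 point per gene and a mark at each list's median. TDP1 is the lowest of the 8 genes at -1.92, STAG1 at -4.47 and XRCC4 at -3.78 lie furthest to the left, and EME1 at 1.55 lies furthest to the right.

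The labelled cell line was checked against marker genes. The 6 mesenchymal, basal-like markers summed to 6364 to 6648 CPM with DMSO and to 3804 to 4101 CPM with NCD, and 6 of 6 were lower at any fold, beside 34.1% of all tested genes. Of these EGFR, MSN, CD44 and AXL were differentially expressed (17.5% of all tested genes were called lower). VIM, the most expressed, was at 3056 CPM with DMSO and 2638 CPM with NCD. The 10 luminal markers summed to 825.6 to 945.8 CPM with DMSO and to 1061 to 1258 CPM with NCD, and ESR1, PGR and CDH1 had at most 0.384 CPM in a library. Most of these sums came from KRT8 (mean of 411.9 CPM with DMSO and 596.0 with NCD) and KRT18 (399.6 and 483.0). Of the 7 luminal markers tested, 6 were higher at any fold, beside 35.3% of all tested genes, and 1 was differentially expressed. This was FOXA1, named after its value was seen, which had a mean of 0.172 CPM with DMSO and 1.68 CPM with NCD (log2 fold change 3.25). The 6 leukocyte markers summed to at most 1.14 CPM in a library. The 6 mesenchymal markers spanned from 9.3 kb (VIM) to 192.6 kb (EGFR), and the 7 tested luminal markers from 4.0 kb (KRT18) to 52.8 kb (KRT8). The part of span in the changes of the markers was not tested. Both marker sums moved with NCD beside the members, and their part in the members' changes was not tested.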

How the data were processed

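RNA-seq of MDA-MB-231 cells was analysed in 3 libraries with DMSO and 3 with NCD, grouped by their labels. For NCD replicates 2 and 3 the description names a different line number than the cell line field, which gives MDA-MB-231 and was used. Expected counts per Ensembl gene were deposited, which the authors made with HiSat2 and RSEM, and GRCh38 (hg38) is named in the submitters' processing notes. The annotation release, the tool versions and the use of strand are not given in the sources used here. Nothing states whether replicates were separate cultures, so p-values measure only the spread between these samples. In each library 25 lines without a gene and without a count were skipped.

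Expected counts were rounded, filtered with filterByExpr, scaled by TMM (factors of 0.911 to 0.949 for DMSO libraries and 1.06 to 1.09 for NCD libraries) and tested with glmQLFTest in edgeR 4.0.16 (R 4.3.3). The standard error (SE) is the size of the log2 fold change over the square root of the F statistic. Within-library ratios used counts plus 0.5 and an exact two-sided permutation test (scipy 1.17.1). The smallest chi-square per degree of freedom between libraries of a group was 2.05 (NCD replicates 1 and 2), so no pair differed by counting error alone. This value cannot tell whether libraries came from the same culture or RNA. On counts simulated from the gene means and library sizes, 194 of 194 changed genes among 15027 were recovered, with 8 false calls. The changed genes were few, went about equally in both directions and had folds above the threshold. Every gene had the same dispersion, and the simulated libraries did not differ in composition. The result does not bear on smaller changes or on such differences. Tables and figures used Python 3.11.15, pandas 2.3.3, numpy 2.4.6 and matplotlib 3.10.9.

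Symbols were found for 62666 of 63241 genes, and GENCODE release 29 held 58228 of them and at least 99.4% of each library's counts. Promoters came from RefSeq, whose table held 7 of the 8 members. The members and the gene lists were chosen with earlier results of these data known. Named genes are the members, per list the 2 called genes with the smallest p at a mean of at least 5 CPM and, where calls went one way or were absent, the most expressed uncalled gene, with 3 genes of most similar pattern for TOP1, TOP2A and TOP2B. Alternatives were DESeq2 1.42.0, limma-voom (limma 3.58.1), RLE size factors, scaling by totals or ribosomal protein genes, omitting the filter or asking for 10 or more counts in all libraries, omitting the fold threshold, blocking on replicate number, each library left out and, added after seeing the data, a long-transcript covariate and both high-scoring libraries left out. The members had 264 to 12570 counts per library, and counting error was not separated from the spread between libraries.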

Additional observations from a re-analysis of the deposited data

How the results depend on the processing

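Over 16 alternatives each, TDP1 and TOP2B were differentially expressed and lower in all, TOP1 and TDP2 were lower and TOP3A and TOP3B higher at an adjusted p below 0.05 in all, and the number of differentially expressed members was 2 or, where TOP1 passed the fold threshold, 3. TOP2A passed the adjusted p in 4 alternatives. These were without the filter on low counts (log2 fold change -0.34, adjusted p = 0.000364 from edgeR), with the long-transcript score as a covariate (-0.36), with both high-scoring libraries left out (-0.49) and without NCD replicate 3. Without the filter the fold of TOP2A was nearly that of the main setting, and its SE was 0.09 in place of 0.23. With the covariate, and with both high-scoring libraries left out, a smaller spread was built in, so neither is independent support. TOP2A ranged from -0.67 to -0.17 when 1 library was left out and was -0.13 (edgeR adjusted p = 0.642) with library totals. TOP1MT turned to 0.10 with library totals, to 0.013 with both high-scoring libraries left out, and ranged from -0.23 to 0.031 when 1 library was left out, with the highest value without DMSO replicate 2. The causes were not tested. Without a fold threshold 10602 genes passed in place of 4736 (5393 higher and 5209 lower). Asking for 10 or more counts in all libraries left 1376 higher and 2307 lower, in place of 2067 and 2669. Without a fold threshold the lists held 24, 7, 7, 12, 8, 12 and 8 called genes in the order given in the text, and with library totals mitochondrial DNA maintenance had 1 higher, end joining 1 higher and 3 lower, and TOP1 adduct repair 2 higher and 3 lower. Same-numbered libraries correlated at 0.52, -0.51 and -0.04 in their deviations. These deviations also carry the difference in long transcripts between libraries, so they cannot tell whether the numbers pair the samples. Blocking on the replicate number, 4723 genes were differentially expressed, and the log2 fold change was -1.92 for TDP1, -1.28 for TOP2B, -0.98 for TOP1, -0.61 for TDP2, -0.36 for TOP2A, -0.09 for TOP1MT, 0.47 for TOP3A and 0.55 for TOP3B, with no call changed. Only 1 of the 3 numbers correlated best with its own.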
